A study of Arabidopsis thaliana with 12 samples.

Results

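The aliphatic glucosinolate synthesis genes are 10 Arabidopsis loci that make, or switch on the making of, the methionine-derived glucosinolates. They were chosen by their place in the pathway: the regulators MYB28 and MYB29, the chain elongation genes BCAT4, BAT5, MAM1 and MAM3, the core synthesis genes CYP79F1, CYP79F2 and CYP83A1, and the side chain gene FMO GS-OX1. All 10 were among the 21200 genes of the deposited count table, and all 10 were among the 18867 that passed the filter on low counts. MYB29 and CYP79F1 reached the filter's count only in libraries of the 24 h groups. An earlier result of the same data was known when the list was made, namely a lower CYP79F1 level with Az39 than with the ipdc mutant at 24 h. Comparisons that use inoculated 24 h libraries are therefore described without a test, and the others are tested.

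RNA came from whole roots of wild-type Columbia seedlings grown on nutrient agar with 1% sucrose and treated 4 days after planting. Seedlings received 2 uL of Azospirillum brasilense Az39 (a growth-promoting rhizobacterium), 2 uL of its ipdc mutant, or 2 uL of 0.9% saline, with bacteria suspended in the same saline at an OD595 of 1. The ipdc gene codes for the bacterial enzyme indole-3-pyruvate decarboxylase, a step in auxin synthesis. Roots were collected at 24 h or 7 d, which gave 6 groups with n = 2 libraries each, and each library pooled at least 50 root systems. The plants in all groups were wild type, and each bacterial genotype was represented by 1 strain.

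Glucosinolates are sulfur-rich defence compounds of the cabbage family that become toxic when a myrosinase splits them after tissue damage. In the aliphatic branch, methionine is first lengthened in the chloroplast, the lengthened amino acid is turned into an oxime and then into the core glucosinolate, and the side chain is modified last. MYB28 and MYB29 are the main transcription factors of this branch, and the indole branch, which starts from tryptophan, has its own MYB factors and CYP79 enzymes. Roots make aliphatic glucosinolates, and specific transporters also exchange them with the shoot.

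CYP79F1 (AT1G16410) and CYP79F2 (AT1G16400) convert chain-elongated methionine to oximes, and they are tandem neighbours on the same strand of chromosome 1. In the TAIR10.1 annotation CYP79F2 lies at chr1:5605044-5607498 and CYP79F1 at chr1:5608682-5612064, with 1183 bases between them. Their coding sequences were 91.9% identical over 1605 aligned bases, with a longest identical run of 100 bases. Reads were 150 bases long. The sources used here do not say how reads that match both genes were counted, so some reads may have been split or lost between them. The 200 bases before each annotated start are shown because the levels of these neighbours moved apart, with CYP83A1 (AT4G13770, chr4:7990429-7992429, minus strand) added because its levels followed those of CYP79F2. Capitals mark the AC element (ACCAACC or ACCTACC, a MYB-binding motif, on either strand) and the G-box (CACGTG, a motif bound by bHLH factors).
CYP79F1: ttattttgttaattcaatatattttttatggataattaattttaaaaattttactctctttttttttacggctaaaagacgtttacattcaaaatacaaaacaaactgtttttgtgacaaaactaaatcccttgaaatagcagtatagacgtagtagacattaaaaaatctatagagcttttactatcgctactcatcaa
CYP79F2: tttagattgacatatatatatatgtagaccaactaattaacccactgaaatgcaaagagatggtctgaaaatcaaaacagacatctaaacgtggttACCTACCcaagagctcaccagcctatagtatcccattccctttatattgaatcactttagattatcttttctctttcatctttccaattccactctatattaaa
CYP83A1: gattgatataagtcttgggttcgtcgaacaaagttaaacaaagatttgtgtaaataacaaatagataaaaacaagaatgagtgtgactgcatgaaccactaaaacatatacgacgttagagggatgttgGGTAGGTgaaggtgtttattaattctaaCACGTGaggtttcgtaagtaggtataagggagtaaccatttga
The windows are chr1:5608482-5608681 (plus strand), chr1:5604844-5605043 (plus strand) and chr4:7992430-7992629 (minus strand), read from the RefSeq genome TAIR10.1. CYP79F2 had an AC element 104 bases before its start, and CYP83A1 had an AC element 71 bases and a G-box 43 bases before its start. Over 250 bases before the start, the AC element was found in 3 of the 10 genes (BAT5, CYP79F2 and CYP83A1) and in 3.96% of 21117 promoters of the same length. The G-box was found in 1 of the 10 and in 7.40% of those promoters. The 2 motifs share no letters at these positions. These letters were not in the CYP79F1 window. Levels of BCAT4 (Pearson's r = 0.905), BAT5 (0.89), MYB28 (0.89), MAM3 (0.82) and MAM1 (0.75) also followed those of CYP79F2 over the 12 libraries. Of these genes only BAT5 had an AC element in the 250 bases. A link between the motifs and the levels was not tested.

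Library totals ranged from 9665704 to 21541793 counts, and the 10 genes together took 0.0213% to 0.0826% of them. All 10 root marker genes were detected in every library, at 0.546% to 1.203% of counts. The ipdc 24 h libraries stood apart by their summed shares of photosynthesis and of seed storage transcripts. Whether these transcripts came from other tissues was not tested. The 24 photosynthesis genes, markers of shoot tissue, summed to 0.429% and 2.33% of counts in them and to 0.0804% to 0.363% in the other 10 libraries, and all 24 were detected in every library. The 10 seed storage genes summed to 4.94% and 0.283% in them and to 0.00139% to 0.122% elsewhere, and 3 of the 10 were at 0 in the first Az39 24 h library. In the ipdc 24 h libraries most of this sum came from CRA1 (343071 and 19017 counts) and CRC (200120 and 11739). CRB, SESA1, SESA3 and SESA4 were instead highest in the second Az39 24 h library, with 1201, 1819, 2296 and 411 counts. They had 313, 277, 382 and 13 counts in the first ipdc 24 h library and 13, 16, 26 and 6 in the second. Replicates of every group differed by more than sampling noise, with a chi-square per degree of freedom of 15.13 or more. The ipdc 24 h replicates were the least alike, at 100.8, and the next highest value was 46.49 in Az39 roots at 7 d.

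Levels below are CPM, counts per 1e6 of a TMM-scaled library total, with the first and second library of a group in that order. Per kilobase of annotated exon, saline roots at 24 h had the highest level for MAM3, at 66.7 ± 6.33 CPM per kb (SD, n = 2). CYP83A1 followed with 46.9 ± 19.1 CPM per kb, BCAT4 with 30.5 ± 6.44 and CYP79F2 with 20.9 ± 2.98. BAT5 had 19.8 ± 3.20 CPM per kb, MYB28 15.23 ± 2.36 and MAM1 15.18 ± 2.01. The lowest levels were those of FMO GS-OX1 (1.06 ± 0.591 CPM per kb), CYP79F1 (0.665 ± 0.572) and MYB29 (0.449 ± 0.415). MAM3 had the highest mean level per kilobase in all 6 groups.

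**Figure D1:**
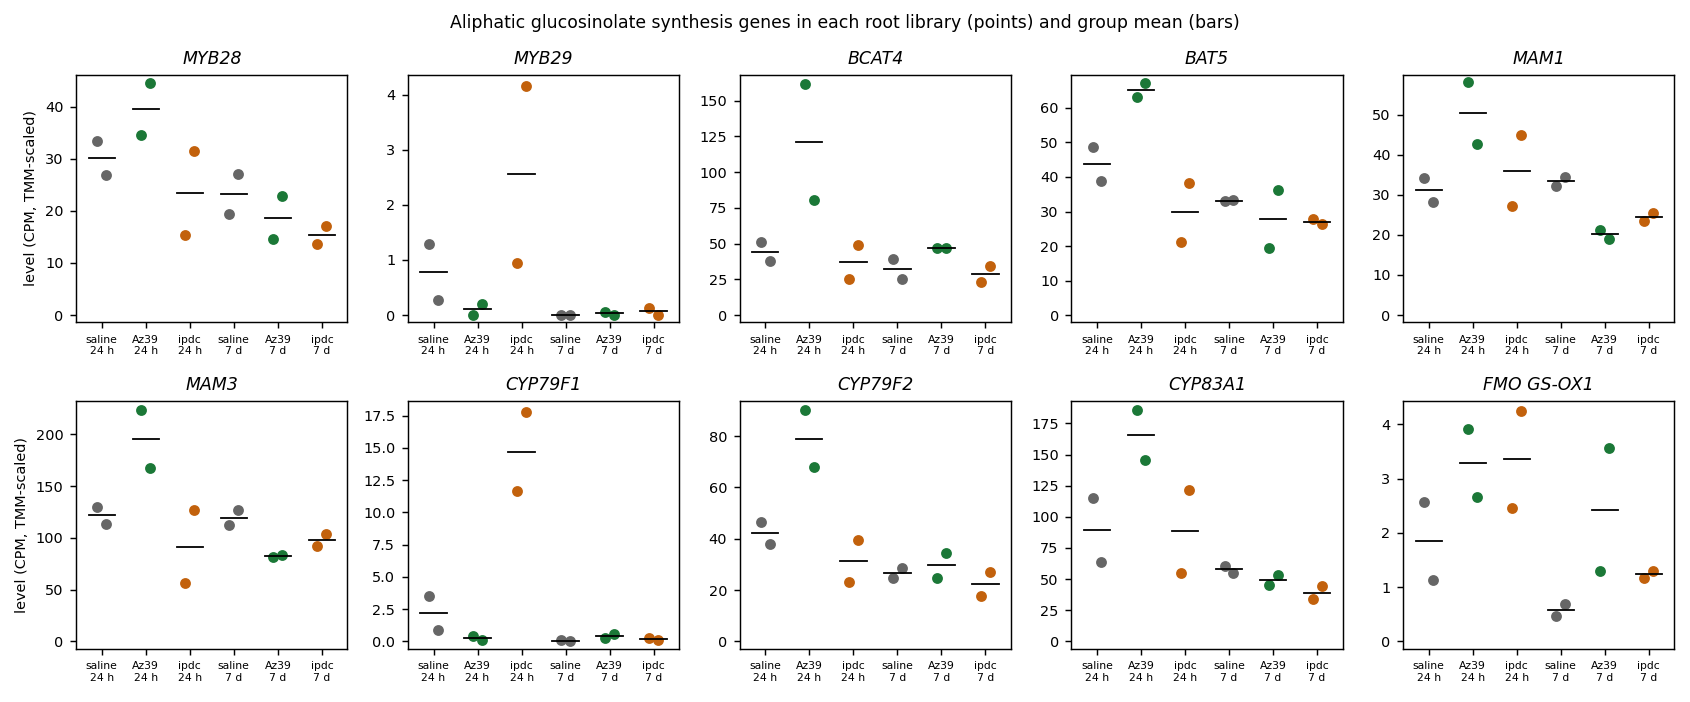
Level of each of the 10 genes in every library (points, TMM-scaled CPM, each panel with its own linear axis) with the mean of each group (bars, n = 2). For 6 genes both Az39 24 h libraries lie above all other 10 libraries, as they do for 3.10% of all genes tested, whereas CYP79F1 is highest in both ipdc 24 h libraries.

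MYB28 (AT5G61420), the more highly expressed of the pair of regulators, had 33.4 and 26.8 CPM in saline roots, 34.7 and 44.6 in Az39 roots, and 15.4 and 31.6 in ipdc roots at 24 h. Its 7 d levels were 19.4 and 27.2 CPM in saline roots, 14.5 and 22.8 in Az39 roots, and 13.6 and 17.1 in ipdc roots. Both Az39 24 h libraries were above every other library, the saline and ipdc libraries at 24 h overlapped, and in the order of the 6 group means no other neighbouring groups were apart.

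MYB29 (AT5G07690), which acts beside MYB28, was close to the detection limit. It had 25 and 6 counts in saline roots, 0 and 3 in Az39 roots, and 10 and 47 in ipdc roots at 24 h. At 7 d it had 0 and 0 counts in saline roots, 1 and 0 in Az39 roots, and 2 and 0 in ipdc roots. The Az39 24 h libraries were below those of both other 24 h groups, and the saline and ipdc libraries overlapped. No fold change is given for MYB29 between the 7 d groups, because all were at or under 3 counts over their libraries.

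BCAT4 (AT3G19710) removes the amino group of methionine at the entry to chain elongation. Its 24 h levels were 50.8 and 37.6 CPM in saline roots, 161.3 and 80.5 in Az39 roots, and 25.5 and 49.0 in ipdc roots, and its 7 d levels were 39.4 and 24.9 in saline roots, 46.8 and 47.0 in Az39 roots, and 23.4 and 34.4 in ipdc roots. Az39 roots at 24 h had the highest values, and the first of its libraries was well above the second. BCAT4 overlaps the neighbouring gene AT3G19700 on the opposite strand by 307 bases, and the library kit did not mark strand, so reads from that stretch could not be assigned to 1 of them.

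BAT5 (AT4G12030), the transporter that moves the keto acid across the chloroplast envelope, had 48.7 and 38.7 CPM in saline roots, 63.1 and 67.3 in Az39 roots, and 21.3 and 38.4 in ipdc roots at 24 h. At 7 d it had 33.0 and 33.3 CPM in saline roots, 19.5 and 36.3 in Az39 roots, and 28.0 and 26.2 in ipdc roots. At 24 h the groups were in the order Az39, saline, ipdc with no overlap between them.

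MAM1 (AT5G23010) and MAM3 (AT5G23020) are methylthioalkylmalate synthases, which carry out the condensation step of each elongation round and set the chain length. MAM1 had 34.1 and 28.2 CPM in saline roots, 58.0 and 42.7 in Az39 roots, and 27.2 and 44.8 in ipdc roots at 24 h, and at 7 d it had 32.3 and 34.5 in saline roots, 21.3 and 19.0 in Az39 roots, and 23.4 and 25.5 in ipdc roots. MAM3 had 130.2 and 113.9 CPM in saline roots, 224.1 and 167.4 in Az39 roots, and 56.0 and 126.9 in ipdc roots at 24 h, and at 7 d it had 112.7 and 126.7 in saline roots, 81.9 and 83.0 in Az39 roots, and 92.1 and 104.1 in ipdc roots. Both genes were highest on average in Az39 roots at 24 h and lowest on average in Az39 roots at 7 d. The coding sequences of this tandem pair were 84.2% identical, with a longest identical run of 30 bases, and the genes lie 11144 bases apart.

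CYP79F1 had 68 and 19 counts in saline roots, 4 and 2 in Az39 roots, and 123 and 201 in ipdc roots at 24 h, or 3.50 and 0.852, 0.412 and 0.136, and 11.6 and 17.8 CPM. At 7 d it had 2 and 0 counts in saline roots, 4 and 9 in Az39 roots, and 4 and 1 in ipdc roots. The 24 h groups did not overlap and were in the order ipdc, saline, Az39, with Az39 roots at 24 h among the 7 d values.

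CYP79F2 had 46.5 and 38.0 CPM in saline roots, 90.1 and 67.9 in Az39 roots, and 23.1 and 39.4 in ipdc roots at 24 h, and at 7 d it had 24.8 and 28.7 in saline roots, 24.8 and 34.3 in Az39 roots, and 17.6 and 27.0 in ipdc roots. Its highest levels were thus in the group in which the neighbouring CYP79F1 had 4 and 2 counts. CYP83A1, the oxime-metabolising P450 that follows the CYP79F enzymes, had 115.3 and 63.9 CPM in saline roots, 185.6 and 145.8 in Az39 roots, and 54.6 and 121.9 in ipdc roots at 24 h. Its 7 d levels were 60.6 and 55.2 CPM in saline roots, 44.9 and 53.3 in Az39 roots, and 33.7 and 44.3 in ipdc roots. The 3 groups of CYP83A1 at 7 d did not overlap and were in the order saline, Az39, ipdc.

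FMO GS-OX1 (AT1G65860) oxidises the sulfur of the methylthioalkyl side chain and was weakly expressed. It had 2.57 and 1.12 CPM in saline roots, 3.91 and 2.65 in Az39 roots, and 2.46 and 4.24 in ipdc roots at 24 h, and at 7 d it had 0.465 and 0.689 in saline roots, 1.297 and 3.56 in Az39 roots, and 1.16 and 1.302 in ipdc roots. Saline roots at 7 d were the lowest group and were below all other libraries.

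At 24 h, 8 of the 10 genes were higher in both Az39 libraries than in both saline libraries, and the other two, CYP79F1 and MYB29, were lower in both. Over all 18867 genes tested, 13.6% were higher without overlap and 11.1% were lower. In this comparison edgeR called 0 of all genes tested and DESeq2 called 2. BCAT4 differed by a log2 fold change of 1.45 ± 0.40 (standard error, n = 2 libraries per group), CYP79F2 by 0.90 ± 0.30, CYP83A1 by 0.89 ± 0.37 and FMO GS-OX1 by 0.82 ± 0.58. MAM1 differed by 0.69 ± 0.24, MAM3 by 0.68 ± 0.31, BAT5 by 0.58 ± 0.31 and MYB28 by 0.40 ± 0.34. The median log2 fold change of the 10 genes was 0.69, against 0.00 over all genes tested. Of the 24 photosynthesis markers, 22 were above 0 for Az39 against saline at 24 h, 13 of them without overlap, with a median of 0.62. All 10 seed storage markers were above 0 with a median of 2.04, and none was higher or lower without overlap. The photosynthesis share was 0.216% and 0.197% of counts with Az39 and 0.200% and 0.0804% with saline. The first saline library thus lay between the Az39 libraries. The seed storage share was 0.00139% and 0.122% with Az39 and 0.0261% and 0.00444% with saline. The part of shoot or seed tissue in the differences was not tested. In pooled root tissue, more cells that express a gene and more RNA per cell cannot be told apart.

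Single libraries set the size of several of these differences. Without the first Az39 24 h library the log2 fold change of BCAT4 was 0.87, and without the second saline 24 h library the median of the 10 genes was 0.45. CYP83A1 ranged from 0.50 to 1.37 and FMO GS-OX1 from 0.32 to 1.53 when each library was left out in turn, both lowest without the second saline library and highest without the first. All 8 genes stayed above 0 in each of these fits.

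CYP79F1 and MYB29 went the other way with Az39 at 24 h. CYP79F1 had 6 counts over both Az39 libraries and 87 over both saline libraries, a scaled ratio of saline to Az39 of 8.48. For MYB29 the counts were 3 and 31 and the ratio was 6.05. Both genes passed the filter on low counts only through saline and ipdc libraries at 24 h. Lower Az39 levels were thus favoured in advance, and the CYP79F1 level with Az39 was part of the difference known when the genes were chosen. No intervals are given here for these reasons. Exact intervals of other ratios below cover counting error only and leave out the spread between replicates. The log2 fold changes were -3.05 ± 0.94 for CYP79F1 and -2.62 ± 1.41 for MYB29, and without the first saline library they were -1.72 and -1.14.

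**Figure D2:**
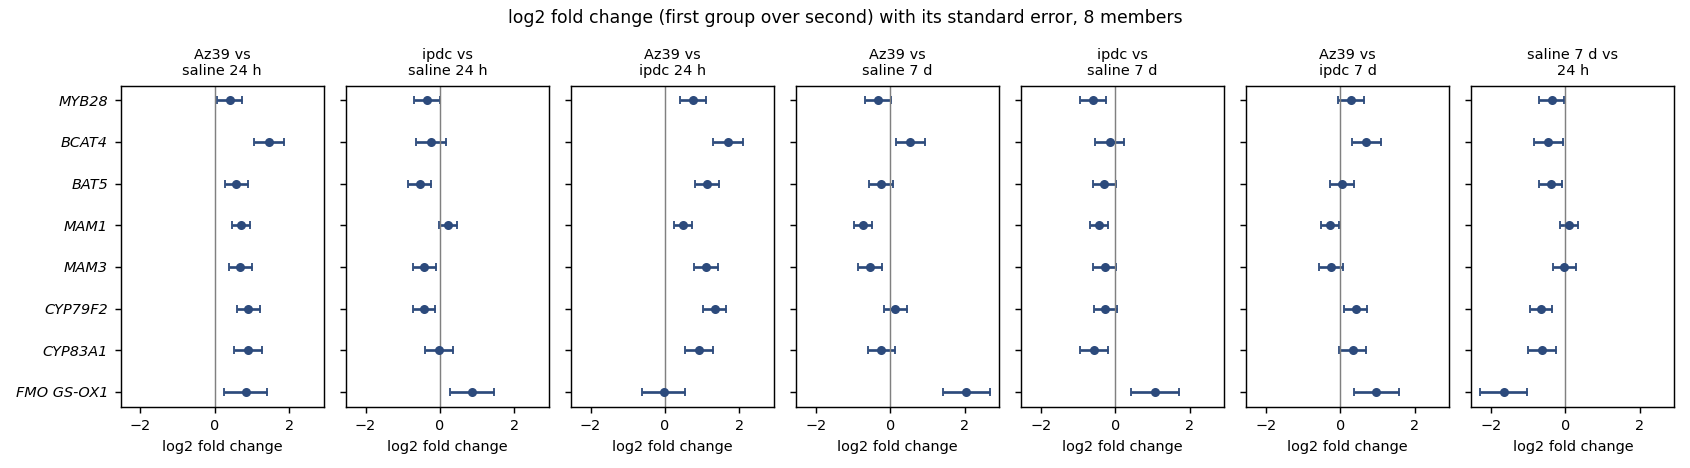
log2 fold changes (points, horizontal axis) with standard errors (bars) in 7 comparisons for 8 genes; MYB29 and CYP79F1 are left out because several of their groups had very few counts. All 8 lie above 0 for Az39 against saline at 24 h, and the MAM1 and MAM3 points lie below 0 for Az39 against saline at 7 d.

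In ipdc roots at 24 h the same genes did not shift together. CYP79F1 was the only gene of the 10 that was higher in both ipdc libraries than in both saline libraries (background 21.7%), and BAT5 was the only one lower in both (background 18.0%). CYP79F1 had 324 counts against 87, a scaled ratio of 7.10 and a log2 fold change of 2.76 ± 0.73, and the value for BAT5 was -0.55 ± 0.31. No interval is given for CYP79F1, because its ipdc level at 24 h was part of the difference known when the genes were chosen. The CYP79F1 value was 4.096 without the first saline library and 2.05 without the second. Of the genes whose libraries overlapped, MYB29 differed by 1.72 ± 1.05, FMO GS-OX1 by 0.87 ± 0.58 and MAM1 by 0.21 ± 0.24. The MYB29 value was 0.30 without the second ipdc library and 3.21 without the first saline library, and that of FMO GS-OX1 was 1.57 without the first saline library. CYP79F2 differed by -0.43 ± 0.30, MAM3 by -0.42 ± 0.31, MYB28 by -0.36 ± 0.35, BCAT4 by -0.25 ± 0.40 and CYP83A1 by -0.02 ± 0.37. The median was -0.13, and it was -0.75 without the second ipdc library and 0.24 without the first. Both inoculated groups were compared with the same saline libraries.

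Set directly against each other at 24 h, Az39 roots were above ipdc roots without overlap for 6 genes (background 21.7%) and below for 2 (background 23.9%). The log2 fold changes were 1.697 ± 0.41 for BCAT4, 1.34 ± 0.30 for CYP79F2, 1.13 ± 0.32 for BAT5 and 1.10 ± 0.32 for MAM3. CYP83A1 differed by 0.91 ± 0.37 and MYB28 by 0.76 ± 0.35. The libraries overlapped for MAM1 (0.48 ± 0.24) and FMO GS-OX1 (-0.04 ± 0.58). For CYP79F1 the difference here was known when the genes were chosen, so no interval is given. It had 6 counts with Az39 and 324 with ipdc, a ratio of ipdc to Az39 of 60.3. MYB29 had 3 and 57 counts, a ratio of 21.2, and 47 of the 57 were in the second ipdc library. Its log2 fold change of -4.35 ± 1.37 was -2.92 without the second ipdc library and -8.36 without the second Az39 library. MYB29 passed the filter on low counts only through saline and ipdc libraries at 24 h. A lower Az39 level was thus favoured in advance, so no interval is given for it either. The median over the 10 genes was 0.83, with 0.43 without the first ipdc library and 1.48 without the second.

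The share of CYP79F1 in the counts of the CYP79F pair sets the neighbours against each other within each library. It was 33.5% (95% Wilson interval 28.9 to 38.5) and 31.1% (27.6 to 34.7) in ipdc roots at 24 h. In saline roots at 24 h it was 7.00% (5.56 to 8.77) and 2.19% (1.41 to 3.40), and in Az39 roots 0.455% (0.177 to 1.16) and 0.200% (0.0549 to 0.726). At 7 d it lay between 0% and 1.61% in the 6 libraries. The library without a CYP79F1 count, saline at 7 d, had 584 counts for the pair, and its interval reached 0.654%. The intervals cover counting error only, and those of the 2 saline 24 h libraries did not overlap each other.

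**Figure D3:**
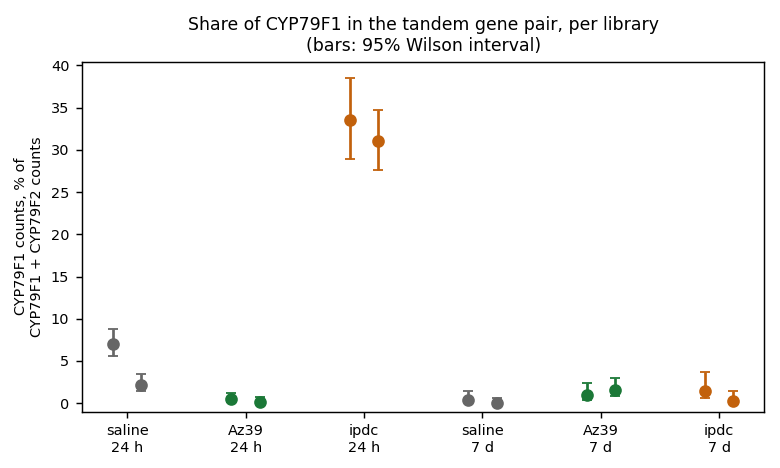
CYP79F1 counts as a percentage of CYP79F1 plus CYP79F2 counts in each library (points) with 95% Wilson intervals (bars, counting error only). Both ipdc 24 h libraries lie above 30%, and all 7 d libraries lie at or below 1.61%.

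The 2 libraries with the highest CYP79F1 levels also had the largest summed shares of photosynthesis and of seed storage transcripts, the latter mostly from CRA1 and CRC. Whether shoot or seed tissue contributed to these shares or to the CYP79F1 level was not tested. All 24 photosynthesis markers were higher without overlap in ipdc than in saline roots at 24 h (background 21.7%), with a median log2 fold change of 3.53. Among the seed storage markers, 6 of 10 were higher without overlap and 1 was lower (background 18.0%). At 24 h the library with the larger photosynthesis share had the higher CYP79F1 level in each group: 68 against 19 counts in saline roots (0.200% against 0.0804%), 4 against 2 in Az39 roots (0.216% against 0.197%) and 201 against 123 in ipdc roots (2.33% against 0.429%). In ipdc roots the seed storage share went the other way, with 0.283% beside 201 counts and 4.94% beside 123. At 7 d the shares ran from 0.117% to 0.363% for photosynthesis and from 0.00351% to 0.0734% for seed storage, and CYP79F1 had 0 to 9 counts. There the library with the larger photosynthesis share had fewer CYP79F1 counts in saline roots (0 against 2, 0.173% against 0.1295%). The same held in ipdc roots (1 against 4, 0.363% against 0.117%). In Az39 roots it had more (9 against 4, 0.170% against 0.120%).

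**Figure D4:**
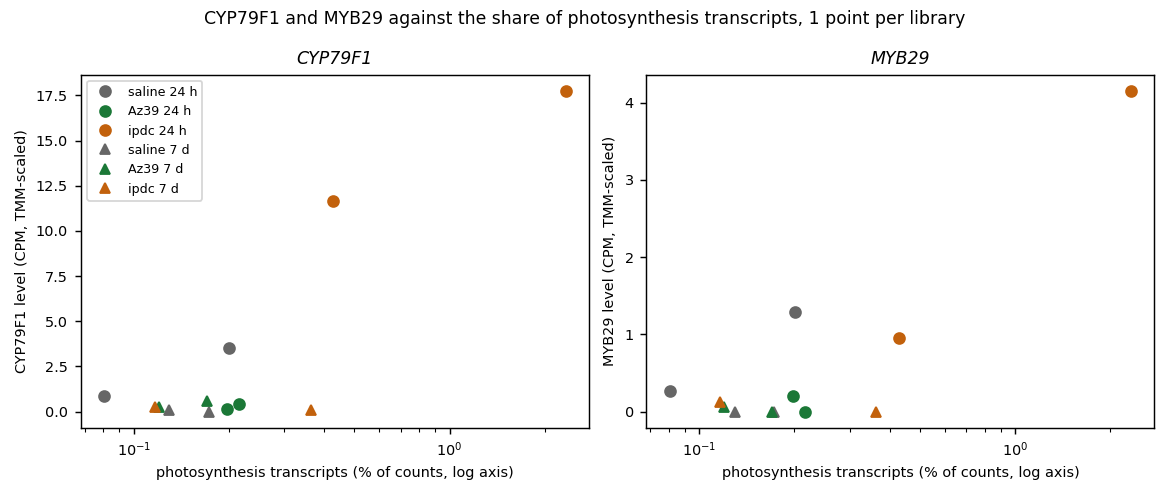
CYP79F1 and MYB29 levels (TMM-scaled CPM, linear vertical axis) against the share of photosynthesis transcripts (percent of counts, log axis), with 1 point per library; circles are 24 h and triangles 7 d. The ipdc 24 h libraries, at 0.429% and 2.33%, have the highest CYP79F1 levels, and the 7 d libraries, at 0.117% to 0.363%, have 0 to 9 CYP79F1 counts.

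Within Az39 roots, 7 of the 10 genes were higher in both 24 h libraries than in both 7 d libraries: MYB28, BCAT4, BAT5, MAM1, MAM3, CYP79F2 and CYP83A1. Over all genes tested the share was 30.2%. Their mean levels at 24 h were 2.12-fold (MYB28) to 3.38-fold (CYP83A1) those at 7 d. FMO GS-OX1, CYP79F1 and MYB29 overlapped between the times.

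At 7 d, 0 of the 10 genes passed the test between Az39 and saline roots (edgeR quasi-likelihood test, Benjamini-Hochberg adjustment over all genes), against 3.69% of all genes tested. At an unadjusted p under 0.05 there were 2, MAM1 and FMO GS-OX1. DESeq2 called 1 of the 10 and limma-voom called 0. MAM1 had a log2 fold change of -0.73 ± 0.24 (edgeR adjusted p = 0.112) and FMO GS-OX1 of 2.05 ± 0.63 (adjusted p = 0.0910), which was 1.15 without the second Az39 library. Without the ipdc 24 h libraries in the fit, MAM1 passed (edgeR adjusted p = 0.0473), and FMO GS-OX1 passed with DESeq2 (adjusted p = 0.0383).

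Of the others, MAM3 and CYP83A1 were lower in both Az39 libraries than in both saline libraries at 7 d, as was MAM1, so 3 genes were lower without overlap (background 26.4%). Their log2 fold changes were -0.54 ± 0.31 (MAM3, edgeR adjusted p = 0.325) and -0.24 ± 0.37 (CYP83A1, adjusted p = 0.734). BCAT4, CYP79F1 and FMO GS-OX1 were higher without overlap (background 30.7%). BCAT4 differed by 0.55 ± 0.40 (edgeR adjusted p = 0.428), and CYP79F1 had 13 counts against 2, a ratio of 7.82 (exact 95% interval 1.77 to 71.4, edgeR adjusted p = 0.208). MYB28 (-0.32 ± 0.35), BAT5 (-0.25 ± 0.31) and CYP79F2 (0.14 ± 0.30) overlapped.

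Between ipdc and saline roots at 7 d, 0 of the 10 genes passed the edgeR test (background 0.0159%), 0 had an unadjusted p under 0.05, and DESeq2 and limma-voom each called 0. In 5 genes both ipdc libraries were below both saline libraries (background 23.7%). Their log2 fold changes were -0.60 ± 0.35 for MYB28, -0.57 ± 0.37 for CYP83A1, -0.45 ± 0.24 for MAM1, -0.29 ± 0.31 for BAT5 and -0.29 ± 0.31 for MAM3. FMO GS-OX1 differed by 1.08 ± 0.64, and it was the only one of the 10 genes with both ipdc libraries above both saline libraries (background 28.6%). CYP79F2 (-0.27 ± 0.30) and BCAT4 (-0.15 ± 0.40) overlapped.

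Between Az39 and ipdc roots at 7 d, 0 of the 10 genes passed (background 0.117%), 0 had an unadjusted p under 0.05, and DESeq2 and limma-voom each called 0. BCAT4 had the smallest unadjusted p of the 10, with a log2 fold change of 0.70 ± 0.40 (edgeR adjusted p = 0.601). FMO GS-OX1 differed by 0.97 ± 0.60 (edgeR adjusted p = 0.629), and by 0.07 without the second Az39 library. The remaining genes with more than 3 counts in each group ranged from -0.28 ± 0.24 (MAM1) to 1.22 ± 1.10 (CYP79F1). BCAT4 and CYP83A1 were higher in both Az39 libraries than in both ipdc libraries, 2 of 10 (background 22.5%), and MAM1 and MAM3 were lower in both, also 2 of 10 (background 20.3%).

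The saline groups compare roots at 7 d and 24 h without bacteria. CYP79F1 was the 1 gene of 10 that passed the edgeR test between 7 d and 24 h (background 16.6%), with 87 counts at 24 h and 2 at 7 d. The ratio of 24 h to 7 d was 41.4 (exact 95% interval 11.1 to 347), and the log2 fold change of 7 d over 24 h was -5.21 ± 1.08 (edgeR adjusted p = 0.0164). This call was lost without the first saline 24 h library (edgeR adjusted p = 0.1085), without the first saline 7 d library (0.0953) and without the second (0.0759), and with limma-voom (0.0569). MYB29 had 31 counts at 24 h and 0 at 7 d (edgeR adjusted p = 0.0543). Against a floor of 3 counts over the group it was at least 9.83-fold lower at 7 d. The exact 95% interval of its ratio of 24 h to 7 d began at 7.53 (counting error only). The first saline 24 h library held 25 of the 31 counts, and without it the bound against the floor was 3.56-fold. DESeq2 called both genes, with an adjusted p of 0.0101 for MYB29. Both passed the filter on low counts only through 24 h libraries, so a fall to 7 d was favoured for them in advance. Their p-values here do not allow for that.

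In all, 6 genes were lower at 7 d in both saline libraries than in both at 24 h (background 33.7%): MYB29, BAT5, CYP79F1, CYP79F2, CYP83A1 and FMO GS-OX1. FMO GS-OX1 differed by -1.66 ± 0.63 (edgeR adjusted p = 0.0956), CYP79F2 by -0.66 ± 0.30 (adjusted p = 0.155), CYP83A1 by -0.63 ± 0.37 (adjusted p = 0.261) and BAT5 by -0.40 ± 0.31 (adjusted p = 0.396). BCAT4 (-0.46 ± 0.40), MYB28 (-0.37 ± 0.34), MAM3 (-0.03 ± 0.31) and MAM1 (0.10 ± 0.24) overlapped between the times.

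Other genes of the pathway were taken from lists by role. In Az39 roots at 24 h, all 5 further chain elongation genes were above saline on average, with a median log2 fold change of 0.76. Of these, 4 were higher without overlap (background 13.6%). Examples were IPMI2 (0.97 ± 0.25) and IPMI1 (0.76 ± 0.20), small subunits of the isomerase of the elongation cycle, and IMD1 (0.84 ± 0.33), its dehydrogenase. All 10 further core synthesis genes were higher in both Az39 libraries than in both saline libraries (background 13.6%), with a median of 0.51. They included the glutathione transferase gene GSTU20 (0.92 ± 0.33) and the sulfotransferase gene SOT18 (0.80 ± 0.21). Several core genes, such as SUR1 and UGT74B1, also serve the indole branch.

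The lists outside elongation and core synthesis had lower medians at 24 h with Az39. Of the 6 side chain genes tested, 4 were above 0 and the median was 0.07, and of 12 transport and breakdown genes 8 were above 0 with a median of 0.13. Of the 6 further regulators tested, 2 were above 0, and SDI1, a repressor of glucosinolate synthesis induced by sulfur deficiency, was higher in both libraries (1.04 ± 0.54). Of the 8 indole branch genes 4 were above 0, 1 without overlap (SOT16, 0.32 ± 0.27, background 13.6%), and the median was 0.09. In ipdc roots at 24 h the median was -0.01 for elongation, -0.33 for core synthesis and -0.43 for the indole branch, beside -0.13 for the 10 genes. SDI1 was also higher there (1.61 ± 0.55), with 31.6 and 9.02 CPM against 4.53 and 8.75 with saline. The side chain gene FMO GS-OX2 was lower (-1.65 ± 0.39), and the myrosinase gene TGG1, which is mainly a shoot gene, was higher (3.18 ± 1.52). Over all genes tested, 21.7% were higher in ipdc than in saline roots at 24 h without overlap and 18.0% were lower.

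**Figure D5:**
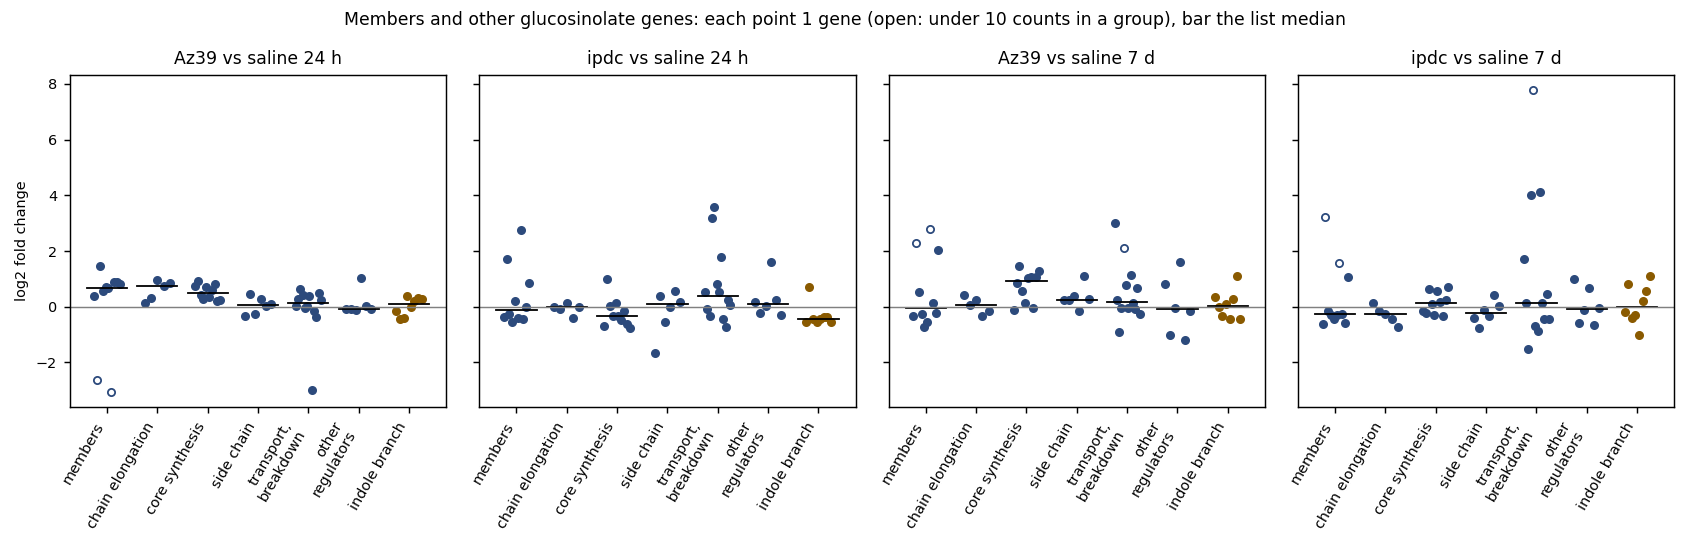
log2 fold change against saline of the 10 genes (members) and of other glucosinolate genes by role, with 1 point per gene (open where a group had under 10 counts, so that the fitted value is imprecise) and bars at list medians. With Az39 at 24 h the medians of the 10 genes, chain elongation and core synthesis are 0.69, 0.76 and 0.51, and that of the indole branch is 0.09.

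At 7 d the pathway's calls between Az39 and saline roots fell on genes outside the 10. Over all genes tested, 3.69% were called in this comparison. Among the 10 further core genes 2 rose: GGP1, a gamma-glutamyl peptidase (1.48 ± 0.25, edgeR adjusted p = 0.0187), and APK1, a kinase that supplies the sulfate donor (1.07 ± 0.25, adjusted p = 0.0489). The glucosinolate transporter gene GTR1 rose from 38.7 and 24.4 CPM with saline to 177.2 and 334.1 with Az39 (3.02 ± 0.39, edgeR adjusted p = 0.00869), and it was the 1 call among 12 transport and breakdown genes. Of 6 further regulators, MYC4, a bHLH partner of the MYB factors, fell (-1.01 ± 0.24, edgeR adjusted p = 0.0477), as did SDI2 (AT1G04770, -1.20 ± 0.23, adjusted p = 0.0275). SDI1 did not fall, with 7.49 and 12.8 CPM with Az39 against 3.98 and 2.76 with saline, and it was not called. None of the 5 elongation, 6 side chain or 8 indole branch genes passed in this comparison with edgeR, with 0, 1 and 1 at an unadjusted p under 0.05. The core list had a median log2 fold change of 0.94 at 7 d, against -0.05 for the 10 genes and 0.05 for all genes.

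In the comparison of saline roots over time, 16.6% of all genes tested were called. Of the 5 further elongation genes 2 fell from 24 h to 7 d, BCAT3 (-0.69 ± 0.20, edgeR adjusted p = 0.0432) and IPMI1 (-0.69 ± 0.20, adjusted p = 0.0435). FMO GS-OX4, another side chain oxygenase gene, rose (0.97 ± 0.24, edgeR adjusted p = 0.0258), as did MYC4 (0.83 ± 0.23, adjusted p = 0.0401). The indole branch genes MYB51 (2.56 ± 0.44, edgeR adjusted p = 0.0113) and CYP81F2 (2.27 ± 0.46, adjusted p = 0.0161) also rose, and 0 of the 8 fell.

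Across the 12 libraries, log2 CPM values of the members other than MYB29, CYP79F1 and FMO GS-OX1 ran together, with Pearson's r between 0.64 (BCAT4 and MAM1) and 0.93 (CYP79F2 and CYP83A1). MYB28 and BAT5 had r = 0.92. MYB29 and CYP79F1 had r = 0.90 with each other (Spearman's rho 0.77), and CYP79F1 had r = 0.06 with its neighbour CYP79F2. In each Az39 24 h and each 7 d library, MYB29 had at most 3 counts and CYP79F1 at most 9. The r of 0.90 thus rests mainly on the saline and ipdc libraries at 24 h. These are descriptions over libraries that share groups and times. Among 16981 other genes, the most like the mean of the 10 genes were AT5G49220 (r = 0.95), IMD1 (0.95), LCB1 (0.94), RBL12 (0.94) and AT2G31790 (0.93). IMD1, AT2G31790 and IPMI1 (0.93), that is 3 of the 10 most like genes, were on the elongation or core lists. For CYP79F1 alone the most like were AT2G33180 (0.93), AT5G16990 (0.92), AT1G50450 (0.91), AT5G10690 (0.90) and emb1211 (0.90), and none of these 5 was on a pathway list.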

How the data were processed

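The authors deposited 1 table of whole-number counts per gene. The submitters' processing notes name HISAT2 2.2.1, featureCounts and the build TAIR10. The strand setting and the handling of reads with several matches were not given in the sources used here. Libraries were made with a kit that does not mark strand, per the labels' protocols. Gene names, positions and sequences came from the RefSeq annotation TAIR10.1, in which 21120 of the 21200 loci were found.

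The analysis used edgeR 4.0.16 in R 4.3.3. Its filterByExpr function, with a count of at least 10, a total of at least 15 and a proportion of 0.7, kept 18867 genes, libraries were scaled by TMM, and 1 model with a mean for each group was fitted to all 12 libraries (6 residual degrees of freedom, biological coefficient of variation 24.5%). Contrasts were tested with the two-sided quasi-likelihood F test with calls at an adjusted p (Benjamini-Hochberg) below 0.05 over all genes tested. Fold changes carry a prior count of 0.125, and their standard error is the absolute log2 fold change over the square root of F. Alternatives tried were DESeq2 1.42.0, limma-voom (limma 3.58.1), RLE scaling, no filter or a stricter filter on low counts, models of the compared groups alone or without the ipdc 24 h libraries, a block for the replicate mark, and omission of each library in turn. The fit was tested on simulated data.

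The members, the lists and the rule for names were chosen with earlier results of these data known. All 10 members are named. Other genes were named if called (up to 4 per list with the smallest adjusted p) or, at 24 h, from the 3 largest changes per list without overlap between groups and with a mean log2 CPM of at least 1. Genes most like the members (10, and 5 for CYP79F1) were those with the highest Pearson's r of log2 CPM. Replicates were separate pools of root systems, per the labels. MYB76, MYC3, AOP2, AOP3 and ESP were on the lists and were not tested. Replicate marks did not pair the libraries (correlations of same-marked deviations from -0.244 to 0.136).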

Additional observations from a re-analysis of the deposited data

Results flagged for a closer look

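Of 30 pairs of a gene and a strain comparison examined at both times, 5 had groups that did not overlap at either time and opposite directions at 24 h and 7 d. The share of all genes with such a reversal was not computed. In the same comparisons, 11.1% to 30.7% of all genes were without overlap in a given direction at a given time. The 30 pairs share groups and are not separate observations. In none of the 5 was the difference between the times itself tested. MAM1 was higher with Az39 than with saline at 24 h (log2 fold change 0.69) and lower at 7 d (-0.73), a difference of -1.42. MAM3 went the same way (0.68 and -0.54, a difference of -1.22), as did CYP83A1 (0.89 and -0.24, a difference of -1.13). CYP79F1 was lower with Az39 at 24 h (-3.05) and higher at 7 d (2.79), a difference of 5.84 that rests on 2 counts in saline roots at 7 d. Against ipdc roots, MAM3 was higher in Az39 roots at 24 h (1.10) and lower at 7 d (-0.25), a difference of -1.35. The cause was not tested.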

How the results depend on the processing

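With 2 libraries per group, calls among the 10 genes depended on the test. For Az39 against saline at 7 d, 1 gene was called instead of 0 with DESeq2 (FMO GS-OX1) and without the ipdc 24 h libraries (MAM1). For saline roots over time, DESeq2 called 2 genes and limma-voom 0, against 1. The genes called there, CYP79F1 and MYB29, passed the filter on low counts only through 24 h libraries. Leaving out 1 library gave 0 to 1 calls for saline roots over time and 0 to 0 for the other tested comparisons. The median log2 fold changes ranged from 0.45 to 0.89 for Az39 against saline at 24 h, from -0.75 to 0.24 for ipdc against saline, and from 0.43 to 1.48 for Az39 against ipdc. With the replicate mark as a block the calls were 0 of 10 at 7 d in each comparison and 1 for saline roots over time, and it changed no call. Over all genes the block called 326 instead of 696 for Az39 against saline at 7 d, 0 instead of 3 for ipdc, 4 instead of 22 between the strains and 2010 instead of 3137 for saline over time. DESeq2 called 1981, 383 and 181 genes in the 7 d comparisons in that order, and the first fell to 7 with edgeR without the second saline 7 d library. A block with the ipdc marks exchanged, added after seeing the data, called 117 of all genes tested for Az39 against ipdc at 24 h, against 181 without a block and 6 with the block as labelled. No called value of the 10 genes reversed. RLE scaling moved the median of all genes by less than 0.1. The cause of these changes was not tested. Depth limits MYB29, CYP79F1 and FMO GS-OX1, which had few counts in several groups.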
